A study of Sus scrofa with 2 samples.

Results

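The miR-181 family was examined in the anterior pituitary of 2 pig breeds, Bama minipigs (YB) and Landrace pigs (YC). All probes whose names start with ssc-miR-181 were taken, which gave 5 of the 355 miRNA probes on the array: ssc-miR-181a, ssc-miR-181b, ssc-miR-181c, ssc-miR-181d-5p and ssc-miR-181d-3p. Bama minipigs are a small Chinese breed with slow growth, and Landrace pigs are a large, lean commercial breed. The piglets were female and 20 days old, and anterior pituitary RNA from 3 of them was combined into 1 pool per breed. Each pool was hybridized to 1 custom microarray, on which tailed and tagged small RNAs bind complementary probes and are stained with the dye Cy5. The values are linear signal intensities after background subtraction and LOWESS normalization by the authors. There was 1 array of 1 pool per breed, which leaves no spread between pigs to estimate, so the breeds were compared without a test. The question was whether members of a miRNA family differ in the anterior pituitary between a slow-growing and a fast-growing breed.

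A miRNA is a small non-coding RNA that lowers the output of messenger RNAs by pairing with them, mainly through its seed, the bases 2 to 8 counted from the 5′ end. The miR-181 family is conserved among vertebrates and is known above all from lymphocytes, where miR-181a sets the sensitivity of the T cell receptor, and it is also expressed in brain. A precursor hairpin has a 5p and a 3p arm, and in this family the 5p arm is the usual mature miRNA. Members with the same seed are predicted to share most of their targets.

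The mature sequences that the probes were designed for are printed here because the members differ by so few bases. They are taken from the study's list of probes, are given 5′ to 3′, and carry the seed in capitals.
ssc-miR-181a: aACAUUCAacgcugucggugaguu
ssc-miR-181b: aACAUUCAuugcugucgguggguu
ssc-miR-181c: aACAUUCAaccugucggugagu
ssc-miR-181d-5p: aACAUUCAuuguugucgguggguu
ssc-miR-181d-3p: cCCACCGAgggaugaaugucac

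The 4 miRNAs of the 5p arm share the seed ACAUUCA, their first 8 bases and a second run of 8 bases, UGUCGGUG, nearer the 3′ end. No other of the 355 probes had this seed. The closest pair was miR-181b and miR-181d-5p, which are identical at 23 of 24 bases and differ by C12U, with positions counted from 1 at the 5′ end and the base of miR-181b first. Next were miR-181a and miR-181c, which aligned at 22 identical bases with 1 internal gap and no mismatch. Between miR-181a and miR-181b there were 3 substitutions, A9U, C10U and A21G. The most distant pair was miR-181c and miR-181d-5p, with 18 identical bases, 4 mismatches and 1 internal gap. The remaining probe, for the opposite arm of miR-181d, had another seed, CCACCGA, which no other probe shared. How far a probe of this family also binds the other members was not tested.

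In RefSeq (used for names and order of genes only), 6 miR-181 genes were found, and each lay beside a second one. MIR181A-1 and MIR181B-1 are neighbours within the gene LOC110255652, the gene next to PTPRC, which encodes the leukocyte surface phosphatase CD45. MIR181A-2 and MIR181B-2 are neighbours within NR6A1, which encodes an orphan nuclear receptor. MIR181D and MIR181C are neighbours that lie within no other gene of the table and are followed by MIR23A, MIR27A and MIR24-1. The signals of miR-181a and miR-181b may thus each come from 2 genes, which the arrays could not tell apart.

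The 4 members of the 5p arm had signals from 919 to 4967, and none differed by 2-fold between the breeds. The highest signal of the family was that of miR-181a, at 4224 for Bama minipigs against 4967 for Landrace pigs. This was 1.18-fold higher in Landrace pigs, a log2 ratio of Bama minipigs over Landrace pigs of -0.23. It was the largest ratio, in either direction, among the 4 members with a signal of at least 100.

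Bama minipigs had a miR-181b signal of 2287 and Landrace pigs one of 2323, which gives a log2 ratio of -0.023. Among the 169 probes with a signal of at least 100 on both arrays, the log2 ratio of miR-181b was the median one. For miR-181c the signals were 919 and 962, a log2 ratio of -0.065. Both miRNAs were thus nearly level between the breeds.

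For miR-181d-5p, Bama minipigs gave 1975 and Landrace pigs 1740. It was the only one of the 4 with the higher signal in Bama minipigs, at 1.13-fold and a log2 ratio of 0.18. This sign did not hold after scaling the arrays to their 75th percentile over all probes, which gave -0.0054, and that of miR-181c turned to 0.084 after cyclic loess. The miRNAs miR-181a and miR-181b stayed lower in Bama minipigs under each of the 6 other treatments of the signals that were tried. Adding the same offset to both arrays cannot change which signal is higher. The scalings to a median or 75th percentile each lowered all log2 ratios alike, so a negative one had to stay negative. Only quantile normalization and cyclic loess could have changed these signs.

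**Figure D1:**
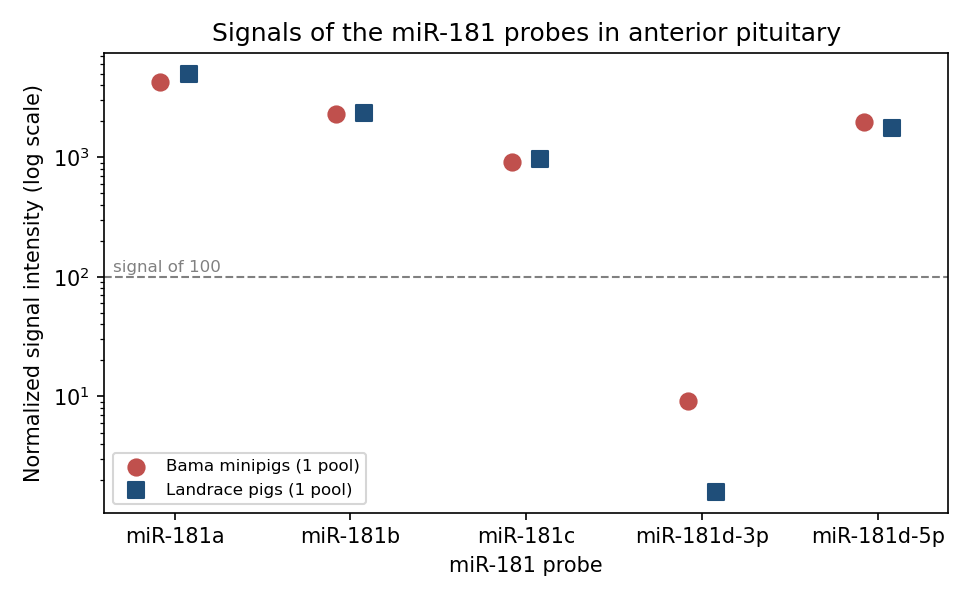
Normalized signal intensity (log axis) of the 5 miR-181 probes in Bama minipigs (circles) and Landrace pigs (squares), 1 pool of 3 pigs each, without error bars because there were no replicate pools. The 4 probes of the 5p arm lie between 919 and 4967, with the 2 breeds close together, and miR-181d-3p lies far below the dashed line at a signal of 100.

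The other arm of miR-181d stood at the bottom of the range. Its 3p probe, miR-181d-3p, gave a signal of 9.25 for Bama minipigs and of 1.60 for Landrace pigs, so that a signal this low or lower was found for 88 of the 355 probes on the first array and 34 on the second. No ratio is given for it, because both signals lay under 100, and the deposited values alone hold no background with which to tell such signals from none. The study's own calls of detection were not used here. The 3p arms of the other members were not analysed here.

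A scale-free view was given by the place of each probe in the order of signals on its own array, counted from the brightest of the 355. It is a description of brightness and not of molecule numbers, because probes bind with unequal strength. In Bama minipigs miR-181a was in place 58, and in Landrace pigs in place 45. The places of miR-181b were 77 and 73, those of miR-181c 114 and 105, and those of miR-181d-5p 80 and 82. The first 3 stood higher in the order in Landrace pigs and miR-181d-5p stood 2 places higher in Bama minipigs, the same directions as their log2 ratios. Places and ratios come from the same signals, so this is no separate support. For miR-181d-3p the places were 268 and 322.

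Of the 4 members of the 5p arm, 0 differed by 2-fold or more, the rule of size used here in place of a test. By the same rule 31 of the 185 probes with a signal of at least 100 on an array, or 16.8%, differed, with 24 higher in Bama minipigs (13.0%) and 7 lower (3.78%). All 4 members reached 100 on both arrays, as did 169 probes in all, of which 21 (12.4%) differed by 2-fold or more, 17 with the higher signal in Bama minipigs and 4 with the lower. With 4 members this count says little of the family against the other probes. The median log2 ratio of the 4 was -0.044, beside -0.023 over the 169 probes and 0.025 over the 185 probes. With its sign dropped, the log2 ratio had a median of 0.29 over the 169 probes and 0.34 over the 185 probes. Each is more than that of any of the 4 members. The size of the log2 ratio was smaller than that of miR-181a in 76 of the 185 probes and than that of miR-181d-5p in 64. It was smaller than that of miR-181c in 31 and than that of miR-181b in 3.

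Over the 169 probes with a signal of at least 100 on both arrays, the middle of the log2 ratios, from the lower to the upper quartile, reached from -0.27 to 0.34, and all 4 members lay in it. The full range of these probes was from -1.28 to 2.32. Added together, the 4 signals came to 9406 for Bama minipigs and to 9993 for Landrace pigs, a log2 ratio of -0.087. They made up 1.35% of the total signal for Bama minipigs and 1.49% for Landrace pigs, and miR-181a had the largest part in both.

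**Figure D2:**
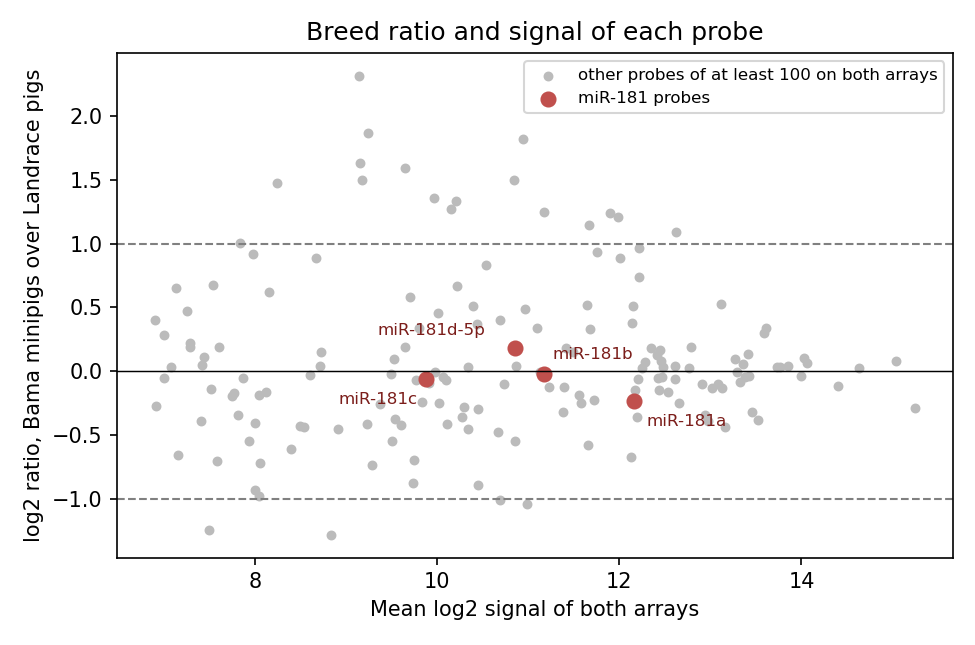
Log2 ratio of Bama minipigs over Landrace pigs against the mean log2 signal of both arrays, with 1 point for each of the 169 probes that had a signal of at least 100 on both arrays. Dashed lines mark 2-fold, and the 4 miR-181 probes (red) lie between -0.23 and 0.18, near the middle of the other probes.

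The members were then compared with each other. A difference between the log2 ratios of 2 probes does not change when an array is multiplied by a constant, so it does not depend on a constant scaling factor between the arrays. The widest such difference was 0.42, between miR-181d-5p and miR-181a, which means that the breed ratios of these probes differed by 1.33-fold. Between miR-181b and miR-181d-5p, whose sequences differ by the 1 base given above, the log2 ratios differed by 0.20. Between miR-181b and miR-181c they differed by 0.042. No spread between pools was available against which to judge these differences.

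Grouped by neighbouring genes, miR-181a and miR-181b had a mean log2 ratio of -0.13, and miR-181c and miR-181d-5p had a mean of 0.059. Grouped by closeness of sequence, the mean was -0.15 for miR-181a and miR-181c and 0.080 for miR-181b and miR-181d-5p. In either grouping, each pair held one of the nearly level miRNAs, miR-181b or miR-181c, so that the pair means rest mostly on miR-181a and miR-181d-5p.

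The miRNAs that follow MIR181C in the genome were also measured. Bama minipigs had a signal of 9991 for ssc-miR-23a and Landrace pigs one of 10053, and that of ssc-miR-27a was 5108 and 4870. The signal of ssc-miR-24 was 5908 and 7042, a log2 ratio of -0.25. The log2 ratios of these 3 miRNAs reached from -0.25 to 0.069. This span takes in miR-181c but not miR-181d-5p, and it also takes in miR-181a and miR-181b, whose genes lie elsewhere. Other genes in the genome can also give miR-24.

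Besides the miR-181 group, 3 other groups of probes with a shared seed had 4 or more members with a signal of at least 100 on both arrays. The log2 ratios within the miR-181 group spanned 0.42. The span was 0.29 in the 5 miRNAs with the seed of ssc-miR-30a-5p, 0.77 in the 5 with the seed of ssc-miR-15a and 1.80 in the 7 with the seed of ssc-let-7a. In the let-7 group 2 members differed by 2-fold or more, against 0 in the other 3 groups. Over all 169 probes with a signal of at least 100 on both arrays, 21 (12.4%) did. The groups differ in size, and a larger group tends to have the wider span.

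**Figure D3:**
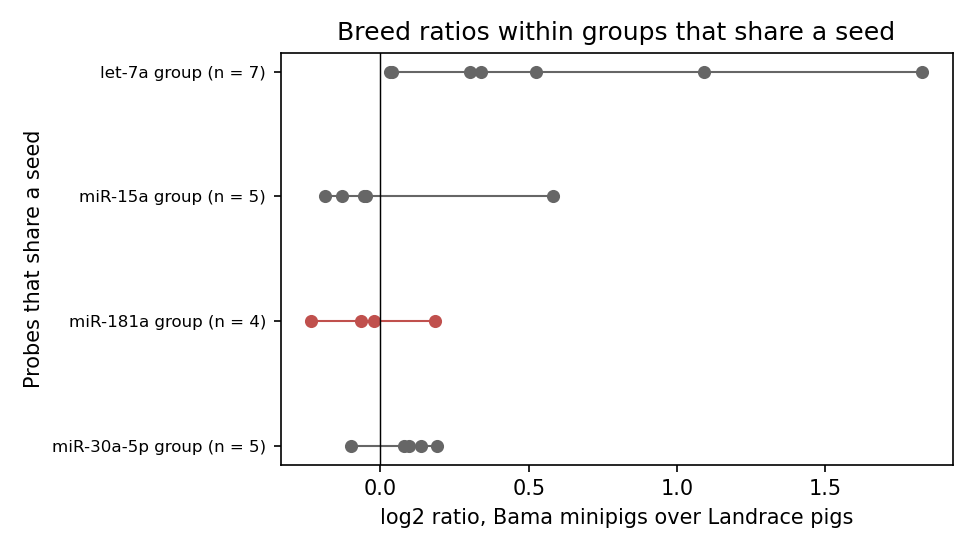
Log2 ratio of Bama minipigs over Landrace pigs for each probe (points) in the 4 groups that share a seed and have 4 or more members with a signal of at least 100 on both arrays, with a line from the lowest to the highest. The miR-181 group (red) spans 0.42 on both sides of 0, while the let-7 group spans 1.80.

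For each member the probe with the nearest pair of log2 signals was looked up, by Euclidean distance over the 2 arrays. It was ssc-miR-361-5p for miR-181a (distance 0.060), ssc-miR-152 for miR-181b (0.060), ssc-miR-331-3p for miR-181c (0.053) and ssc-miR-17-5p for miR-181d-5p (0.10). With 2 arrays this is a likeness of 2 values and not of a pattern over conditions.

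Probes known from other cell types were set beside these values. The miRNAs of the anterior pituitary's endocrine and epithelial cells, ssc-miR-7, Y-90 (listed by the study as miR-375), the miR-200 family probes Y-75, Y-76 and Y-77, and ssc-miR-429, all had signals of at least 1685 on both arrays. The 5 white blood cell probes (ssc-miR-142-3p, ssc-miR-142-5p, ssc-miR-155, ssc-miR-146a and ssc-miR-146b) reached at most 25.5 for Bama minipigs and 18.1 for Landrace pigs, with summed signals of 28.2 and 21.3. All 5 thus lay under 100 on both arrays. The part of white blood cells in the miR-181 signals was not tested. For red blood cells, ssc-miR-451 and ssc-miR-486 summed to 5494 and 6023. For brain and posterior lobe, 4 of 7 probes had a signal of at least 100 on an array, and the sums were 15487 and 15087. Of these 4, 0 differed by 2-fold or more, beside 16.8% of the 185 such probes on the array. The sums rest mostly on ssc-miR-129a (6157 and 6408), ssc-miR-128 (5384 and 5602) and Y-74 (3682 and 2931). The other of the 4, ssc-miR-153, was at 180 and 98.0 and reached 100 in Bama minipigs only. Lower still were ssc-miR-124a, found in neurons, at 66.3 and 27.0, ssc-miR-9-1 at 11.5 and 6.26 and ssc-miR-219 at 6.13 and 14.8.

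The lists with members past 2-fold between the pools were those of muscle and connective tissue. Of the 4 striated muscle probes, 3 were 2-fold or more higher in Bama minipigs and 1 was lower, and the sums were 1352 and 463. The 3 higher ones, ssc-miR-1, ssc-miR-133a-3p and ssc-miR-133b, reached 100 in Bama minipigs only, with 25.1, 79.2 and 80.6 in Landrace pigs, so they entered the count through the breed in which they are high. Of the 6 probes of connective tissue and vessels, 2 were 2-fold or more lower in Bama minipigs, ssc-miR-199b (log2 ratio -1.28) and ssc-miR-143-3p (-1.01). The log2 ratio was -0.74 for ssc-miR-199a, -0.34 for ssc-miR-126 and -0.16 for ssc-miR-145. It was 0.19 for ssc-miR-214, which had the higher signal in Bama minipigs. The median log2 ratio of the 6 was -0.54, and the sums were 15379 and 19737. The counts are of the signals as deposited. Over the 185 probes with a signal of at least 100 on an array, 24 (13.0%) were 2-fold or more higher in Bama minipigs and 7 (3.78%) lower. The part of these tissues in the miR-181 values was not tested. In such bulk RNA, fewer cells of a type and less of a miRNA per cell cannot be told apart.

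The breed ratios were recomputed with other treatments of the signals. Scaling each array to its median over the 169 probes lowered every log2 ratio by 0.11, and scaling to the 75th percentile of all probes lowered every log2 ratio by 0.19. The log2 ratio of miR-181a reached from -0.49 after quantile normalization to -0.23 with 50 signal units added to both arrays. That of miR-181b reached from -0.21 to -0.022, that of miR-181c from -0.26 to 0.084 and that of miR-181d-5p from -0.0054 to 0.18. None of the 4 came to 2-fold under any of these treatments. In each of them miR-181a had the lowest log2 ratio of the 4 and miR-181d-5p the highest. The scalings to a median or 75th percentile shift all 4 alike, so they could not change this order. After cyclic loess miR-181c, at 0.084, stood above miR-181b, at -0.11, the reverse of their order as deposited.

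**Figure D4:**
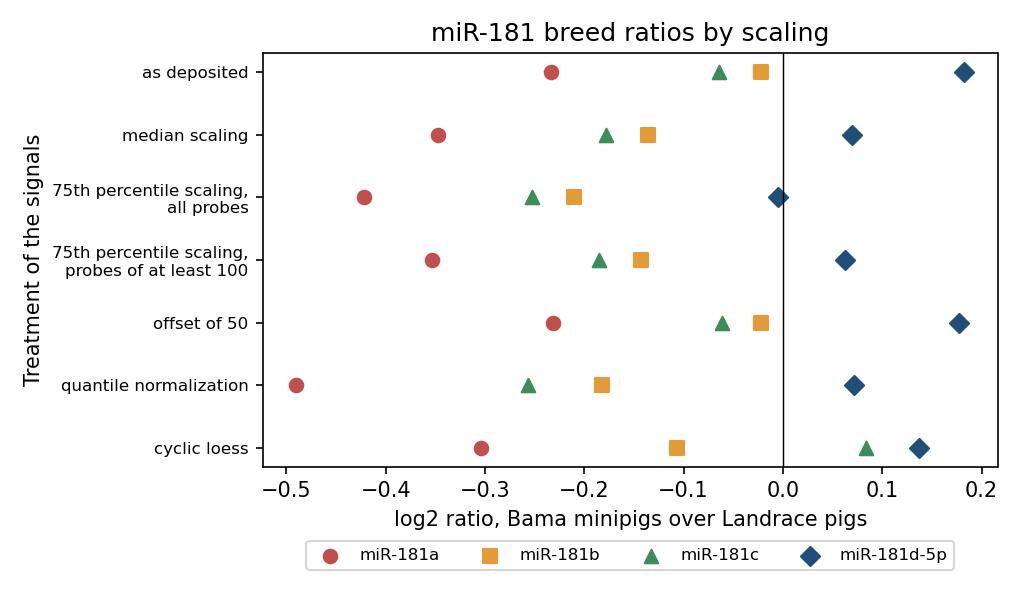
Log2 ratio of Bama minipigs over Landrace pigs (x axis) of the 4 miR-181 probes of the 5p arm, for the signals as deposited and for 6 other treatments of them (y axis). In each row miR-181a lies farthest left and miR-181d-5p farthest right, while single probes shift by up to 0.26 from their ratio as deposited.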

How the data were processed

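Anterior pituitary miRNAs were measured on 1 custom microarray per breed, from a pool of 3 pigs each. Per the labels and the study's methods, small RNAs were stained with Cy5 and the authors removed background, applied a LOWESS normalization and took the mean of repeat spots. The deposited table gives 1 signal intensity per probe on a linear scale, 355 per array, of which 0 lie at or below 0. How signals under the background were kept above 0 is not given in the sources used here. The deposited file holds no background, spot data or calls of detection. The study lists such calls in a supplementary table, which was not used here, so a signal of at least 100 on an array was required before a ratio was given, and the number of arrays limits the precision.

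Log2 ratios were computed from the values as deposited, and 2-fold was used as a rule of size. No p-value was computed. Named are all probes of the family, the nearest probe of each, and the probes of the lists described. The members and lists were chosen with earlier results of these data known. Other treatments were scaling to the median or 75th percentile, an offset of 50, quantile normalization, and cyclic loess (3 iterations) over the 169 probes of at least 100 on both arrays. The package limma 3.58.1 under R 4.3.3 ran both. The scalings were tested on simulated data. Sequences were aligned with Biopython 1.88, with Python 3.11.15, numpy 2.4.6, pandas 2.3.3 and matplotlib 3.10.9 used otherwise. The 6 miR-181 genes were found in RefSeq by symbol, and the files name no genome build, so no coordinates are given.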

Additional observations from a re-analysis of the deposited data

How the results depend on the processing

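None of the 4 miR-181 probes of the 5p arm came to 2-fold under any of the 6 other treatments. The median log2 ratio of the 4 probes, -0.044 as deposited, was -0.16 after median scaling, -0.23 after scaling to the 75th percentile of all probes, -0.22 after quantile normalization, -0.012 after loess, -0.042 with the offset of 50 and -0.023 with all 5 probes. Scaling to the 75th percentile of the 169 probes, added after seeing the data, gave -0.16. A move of up to 0.1 was taken as none. By that rule the median of the 4 moved after median scaling, both 75th percentile scalings and quantile normalization. The median over the 169 probes, -0.023 as deposited, was -0.14 after median scaling and -0.21 after scaling to the 75th percentile of all probes. It was -0.14 after scaling to the 75th percentile of the 169 probes, -0.10 after quantile normalization and 0.0028 after loess. The range within the family, 0.42, was 0.56 after quantile normalization, 0.44 after loess and 0.41 with the offset. The number of probes past 2-fold, 31 of the 185 (16.8%) with a signal of at least 100 on an array, was 123 of all 355 probes (34.6%). With a signal of at least 500 on an array it was 19 of 131 (14.5%). The causes were not tested. No replicate could be left out and no paired analysis was possible because each breed had 1 array. The deposited values alone do not tell low signals, as of miR-181d-3p, from background.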
